A study of Mus musculus with 24 samples.

Results

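A set of 8 mouse genes, of the 24357 gene entries that carry a symbol, was chosen by a 24 h rhythm in repair of the non-transcribed strand: Btbd10, Tmem263, Sphk2, Il27ra, Pdia2, Rhbdd2, Hectd2 and Slc13a1. All 8 were found once each in the gene tables of both tissues. The data are XR-seq, a method that reads out the damaged oligomers cut from DNA during nucleotide excision repair, so that every read carries the strand on which a lesion was repaired. Wild-type C57BL/6J females of 6 months, kept on a 12 h light, 12 h dark schedule, were given 10 mg/kg cisplatin by intraperitoneal injection, and kidney and liver were taken 2 h afterwards. Collection was at zeitgeber times (ZT, hours from lights on) 0, 4, 8, 12, 16 and 20, with 2 libraries for each of the 12 combinations of tissue and time, or 24 libraries in all. All groups received cisplatin, and no undamaged group was part of the comparison. Whether both libraries of a time are from different animals is not stated in the labels, so the p-values below speak of the spread among these libraries alone, and that spread may be technical.

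The transcribed strand (TS) of a gene is the template that RNA polymerase reads, and the non-transcribed strand (NTS) is its partner. A polymerase that stalls at a lesion on the template recruits repair factors, which is transcription-coupled repair, so TS repair follows how much a gene is transcribed. Repair of the NTS is carried out by the global pathway, which does not need that polymerase. The NTS of one gene is also the template strand for any transcription that runs through the same DNA in the opposite direction. Many genes of kidney and liver are transcribed with a daily rhythm set by the circadian clock, in which CLOCK and ARNTL (BMAL1) activate genes such as Dbp and Cry1, and the CRY and PER proteins hold them back.

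Library totals were 8718055 to 33716763 reads in kidney and 12917058 to 28244795 in liver. Reads on the NTS of gene entries numbered 975978 to 3948748 per library of kidney, with 1333813 to 2940892 for liver. TS reads ranged from 6334958 to 24236776 and from 9538537 to 21050661. The labelled tissues were checked by the TS of marker genes. All 6 kidney tubule markers were higher in every kidney library than in any liver library, and all 6 hepatocyte markers were higher in every liver library, with none of the 12 at 0 in either tissue. The summed TS of 4 endothelial markers was 1.38 to 2.44 RPKM in kidney and 1.24 to 3.66 in liver, and that of 4 immune markers 0.743 to 1.41 and 0.403 to 0.985. The immune markers did not all go the same way. Csf1r was higher in every kidney library than in any of liver, and Adgre1 was higher in every liver library. In bulk tissue fewer cells of a type and less repair per cell cannot be told apart. Levels below are the deposited RPKM, which are reads scaled to gene length in kilobases and to library size.

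The members lie on 7 chromosomes, and 6 of the 8 end next to, or inside, a gene of the opposite strand (coordinates in mm10). Btbd10 (chr7:113315644-113369339, minus strand) ends 1.517 kb from the end of Arntl, which runs toward it. Tmem263 (chr10:85102627-85117747, plus strand) ends 1.685 kb from Mterf2, with Cry1 next in the same direction at 13.952 kb. Pdia2 (chr17:26195999-26199087, minus strand) ends 0.187 kb from Axin1. In 3 cases the pair overlap at their ends. Sphk2 (chr7:45709463-45718002, minus strand) shares 741 bases with Dbp, which is 8.68% of Sphk2 and 14.9% of Dbp. Hectd2 (chr19:36554639-36621135, plus strand) shares 1718 bases with 1500017E21Rik, and Il27ra (chr8:84030286-84042575, minus strand) shares 10 bases with Palm3. The last pair of members stands alone. Rhbdd2 (chr5:135632654-135646376, plus strand) has its nearest opposite gene running toward it, Tmem120a, at 89.1 kb, with Por, which encodes the electron donor of cytochrome P450 enzymes, on the same strand as Rhbdd2 in between. Slc13a1 (chr6:24088283-24168092, minus strand) has no opposite-strand gene within 100 kb, and the nearest, Asb15, lies 360.1 kb away.

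**Figure D1:**
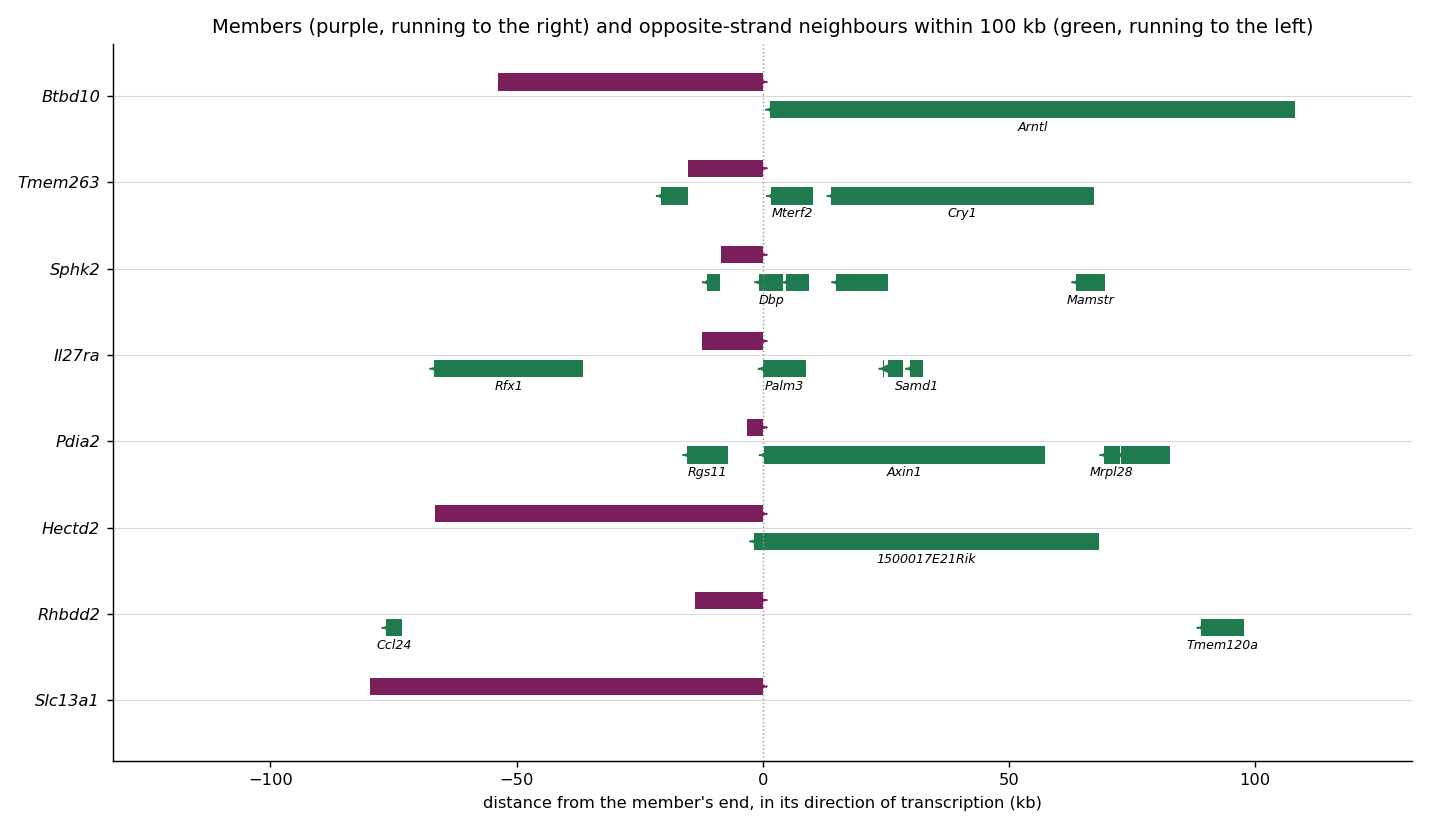
The 8 members (purple) and the opposite-strand genes named for each within 100 kb (green, some without a label), as distance in kb from the end of the member along its direction of transcription. In 6 rows a green gene ends at or near the end of the purple one, and in the rows of Rhbdd2 and Slc13a1 none does.

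Promoter sequences are shown for the 3 clock genes beside members, and for Pdia2, the 1 member with a match to a clock motif among the 5 that had a window. Windows of 250 bases before the start were available from RefSeq (GRCm38.p6) for 21 of 32 symbols of members and opposite-strand neighbours. They were searched on both strands for the E-box CACGTG, bound by CLOCK and ARNTL, for the D-box TTATGTAA or TTACGTAA, bound by DBP and its relatives, and for AGGTCA, the core of the ROR element. Among 32851 promoter windows of this length 6.02% held the E-box, 0.931% the D-box and 14.0% the ROR core. Of the 21 symbols searched, 4 held the E-box (Cry1, Pdia2, Ppp1r3c and Asb15), 2 the ROR core (Ntn5 and Asb15) and 0 the D-box. The windows of Arntl and Dbp held none of the 3. Those of Cry1 and Pdia2 held 1 E-box each, which starts 60 and 12 bases before the start. A match describes the letters only. The 4 windows are printed 5′ to 3′ in the direction of the gene, with the E-box in capitals: chr7:113207215-113207464 (plus strand) for Arntl, chr10:85185055-85185304 (minus strand) for Cry1, chr7:45704997-45705246 (plus strand) for Dbp and chr17:26199088-26199337 (minus strand) for Pdia2.
Arntl: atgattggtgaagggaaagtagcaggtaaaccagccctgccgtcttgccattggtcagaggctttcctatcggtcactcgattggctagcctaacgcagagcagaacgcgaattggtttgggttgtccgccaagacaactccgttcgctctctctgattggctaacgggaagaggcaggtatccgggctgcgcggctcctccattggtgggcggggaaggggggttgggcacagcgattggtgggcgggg
Cry1: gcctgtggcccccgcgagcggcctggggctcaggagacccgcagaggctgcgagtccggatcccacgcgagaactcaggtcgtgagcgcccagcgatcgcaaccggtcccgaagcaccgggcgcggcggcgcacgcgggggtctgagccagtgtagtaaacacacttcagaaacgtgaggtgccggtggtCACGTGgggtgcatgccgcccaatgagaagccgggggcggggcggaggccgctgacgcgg
Dbp: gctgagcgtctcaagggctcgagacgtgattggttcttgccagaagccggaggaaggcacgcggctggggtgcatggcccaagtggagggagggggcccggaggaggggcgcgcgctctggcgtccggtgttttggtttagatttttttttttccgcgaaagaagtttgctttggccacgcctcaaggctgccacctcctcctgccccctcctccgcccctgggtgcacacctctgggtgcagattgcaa
Pdia2: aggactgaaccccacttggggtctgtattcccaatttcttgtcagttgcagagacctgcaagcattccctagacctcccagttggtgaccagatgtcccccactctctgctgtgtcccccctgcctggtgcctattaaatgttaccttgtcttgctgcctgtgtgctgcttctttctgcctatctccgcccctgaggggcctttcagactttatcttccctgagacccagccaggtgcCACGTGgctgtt

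NTS rhythm was described with a 24 h cosine fitted to the counts of each tissue. Its amplitude is in log2 units, so that the fold from trough to peak is 2 to the power of 2 amplitudes. In kidney 5 of 8 members passed an adjusted p of 0.05 and in liver 6 of 8, where 2.12% of 18932 and 3.76% of 18061 entries passed. The members were selected on this rhythm, so nothing is read from those counts and no p is given for them. A fit that added the replicate number as a term (the block) passed 7.78% of kidney entries and again 5 members, and in liver 7 members. The test of any difference among times passed 4 in kidney, and the authors' downsampled kidney counts 3 of the 5 members that could be tested in them. These 5 were Btbd10, Tmem263, Pdia2, Rhbdd2 and Slc13a1, and Rhbdd2 and Slc13a1 had not passed in kidney in the main fit. Btbd10, Tmem263 and Sphk2 passed in both tissues, Il27ra and Pdia2 in kidney, and Rhbdd2, Hectd2 and Slc13a1 in liver. Each tissue was fitted alone, and a difference in NTS rhythm between tissues was not tested. The median amplitude was 0.55 in kidney and 0.88 in liver over the 8 members, against 0.14 and 0.15 over all entries tested. Tmem263 was the member nearest inside the threshold in kidney (amplitude 0.52) and Rhbdd2 the nearest outside (0.21). In liver these were Sphk2 (0.78) and Pdia2 (0.24).

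**Figure D2:**
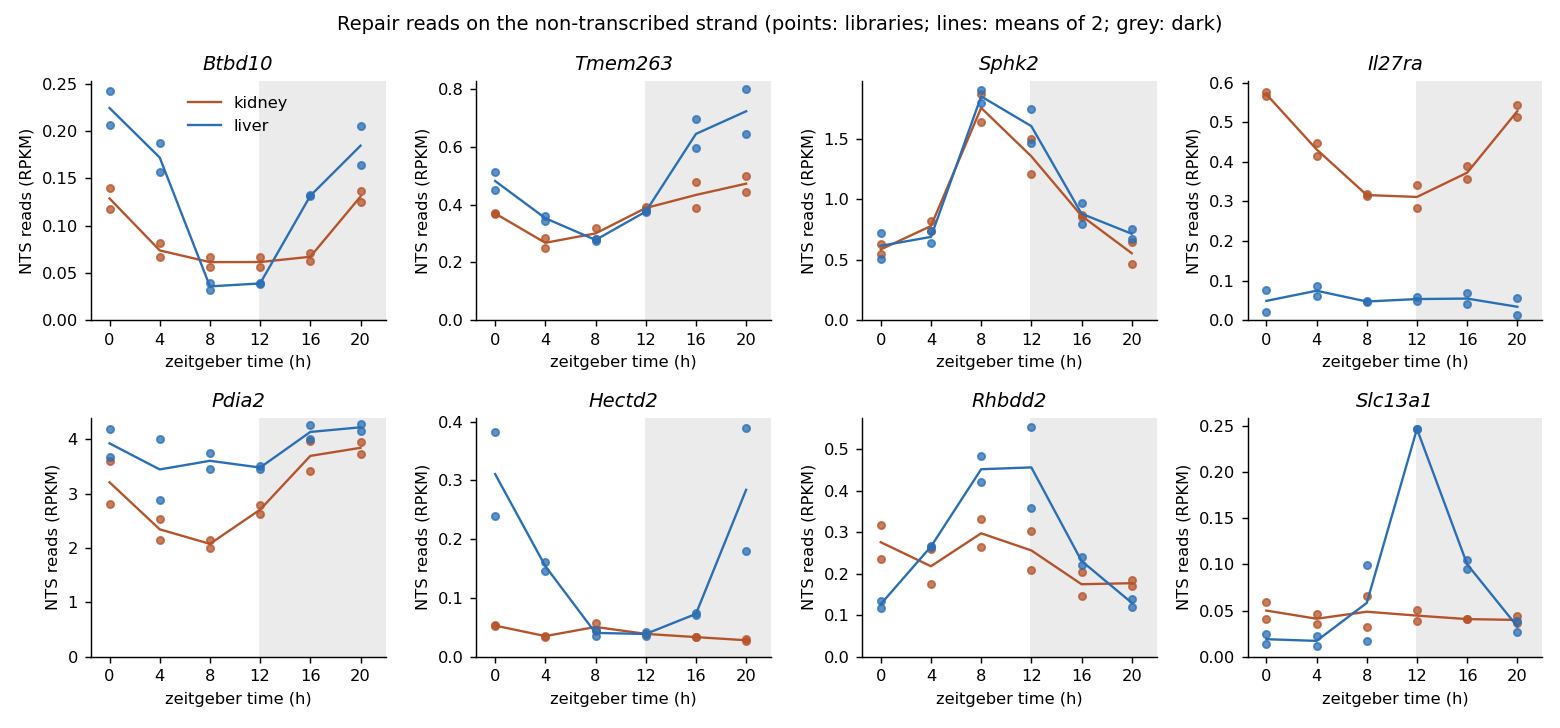
NTS reads (RPKM) of each member against zeitgeber time in hours, for kidney and liver, with 1 point per library, lines through the means of 2 and the dark phase in grey. Btbd10, Tmem263 and Sphk2 swing in both tissues, Il27ra and Pdia2 mainly in kidney, and Hectd2, Rhbdd2 and Slc13a1 mainly in liver.

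Btbd10 encodes a BTB-domain protein, and Arntl, beside it, the clock activator BMAL1. The NTS of Btbd10 in liver stood at 0.206 and 0.242 RPKM at ZT0, 0.188 and 0.156 at ZT4, and 0.0323 and 0.039 at ZT8. It was 0.0383 and 0.0392 at ZT12, 0.132 and 0.131 at ZT16, and 0.164 and 0.205 at ZT20. The 4 libraries of ZT8 and ZT12 lay below all the others. The fitted amplitude was 1.33 ± 0.13 (SE), a 6.36-fold swing, with the peak at 22.4 h. In kidney it was 0.75 ± 0.08 with the peak at 21.8 h, and the libraries ranged from 0.0558 to 0.14 RPKM.

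The TS of Arntl, which shares no base with Btbd10, was rhythmic in kidney (amplitude 1.11 ± 0.11, peak 22.1 h, edgeR adjusted p = 8.24e-05) and in liver (1.09 ± 0.22, 21.9 h, adjusted p = 0.0131). Its liver libraries read 2.8 and 2.84 RPKM at ZT0, 2.78 and 2.71 at ZT4, and 0.846 and 0.494 at ZT8. They read 0.7 and 0.922 at ZT12, 2.73 and 2.86 at ZT16, and 2.66 and 2.72 at ZT20. The libraries of ZT8 and ZT12 were again the lowest, with no overlap. The peaks of Btbd10 NTS and Arntl TS differed by 0.238 h in kidney and 0.545 h in liver. Per kilobase, the NTS of Btbd10 was 6.20% ± 2.98 of the TS of Arntl in kidney (SD, n = 12). The liver value was 6.08% ± 1.55 (SD, n = 12). The rhythm of Arntl did not pass the test of a difference between tissues (0.07 ± 0.22, adjusted p = 0.990).

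Tmem263, a transmembrane protein gene, faces Mterf2, a member of the mitochondrial transcription factor family, and behind it Cry1, the clock repressor. In liver the NTS of Tmem263 was 0.451 and 0.513 RPKM at ZT0, 0.345 and 0.361 at ZT4, and 0.275 and 0.28 at ZT8. It rose through 0.378 and 0.374 at ZT12 to 0.595 and 0.695 at ZT16, and 0.646 and 0.801 at ZT20. The 4 libraries of ZT16 and ZT20 were above every other. Amplitudes were 0.78 ± 0.07 with a peak at 19.2 h in liver and 0.52 ± 0.07 with a peak at 18.2 h in kidney, where the range was 0.25 to 0.501 RPKM.

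Mterf2 passed the TS test in both tissues, with amplitude 0.69 ± 0.07 and peak 19.0 h in liver (adjusted p = 0.000197), and 0.48 ± 0.08 and 18.1 h in kidney (adjusted p = 0.00259). The kidney call was lost in a test of any difference among the 6 times (adjusted p = 0.0685). Its peaks lay 0.190 h and 0.0898 h from those of the Tmem263 NTS. Liver libraries of Mterf2 gave 1.3 and 1.33 RPKM at ZT0, 0.782 and 0.896 at ZT4, and 0.662 and 0.617 at ZT8. They gave 0.935 and 1.1 at ZT12, 1.66 and 1.62 at ZT16, and 1.48 and 1.64 at ZT20, so its 4 highest libraries were also those of ZT16 and ZT20. The NTS of Tmem263 was 43.6% ± 5.40 of the TS of Mterf2 in kidney and 40.9% ± 4.50 in liver (SD, n = 12 each).

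Cry1, one gene further, peaked somewhat earlier on its TS, at 16.6 h in kidney (0.68 ± 0.08, adjusted p = 0.000211) and 18.01 h in liver (0.27 ± 0.06, adjusted p = 0.0147, or 0.0674 for any difference among the 6 times). These were 1.59 h and 1.16 h from the Tmem263 NTS. The amplitude of Cry1 was larger in kidney, and that of the Tmem263 NTS was larger in liver. The difference between tissues for Cry1 did not pass (0.44 ± 0.10, adjusted p = 0.0811), but it did with the block (adjusted p = 0.0263), with DESeq2 (0.00828) and without kidney ZT0 replicate 2 (adjusted p = 0.0169). On the other side, Fhl4 starts 0.131 kb from the start of Tmem263 and its TS did not pass in kidney (0.03 ± 0.09, adjusted p = 0.989) or liver (0.10 ± 0.11, adjusted p = 0.836).

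Sphk2 encodes a sphingosine kinase, and Dbp a D-box activator under direct control of the clock. The NTS of Sphk2 in kidney was 0.545 and 0.626 RPKM at ZT0, 0.739 and 0.82 at ZT4, and 1.64 and 1.87 at ZT8. It was 1.21 and 1.5 at ZT12, 0.872 and 0.856 at ZT16, and 0.464 and 0.643 at ZT20. In liver the values were 0.725 and 0.506 at ZT0, 0.637 and 0.742 at ZT4, and 1.91 and 1.8 at ZT8. They were 1.75 and 1.46 at ZT12, 0.968 and 0.795 at ZT16, and 0.672 and 0.759 at ZT20. In both tissues the 4 libraries of ZT8 and ZT12 stood above the rest. The amplitude was 0.71 ± 0.07 with the peak at 10.1 h in kidney and 0.78 ± 0.10 with the peak at 10.8 h in liver.

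Dbp peaked on its TS at 10.2 h in kidney (amplitude 0.93 ± 0.07) and 11.04 h in liver (1.304 ± 0.19). These are given as a description, since the shared bases put some of the same reads in both counts. Kidney TS of Dbp was 1.51 and 1.27 RPKM at ZT0, 2.82 and 2.62 at ZT4, and 5.43 and 5.85 at ZT8. It was 4.42 and 5.02 at ZT12, 2.94 and 2.56 at ZT16, and 1.96 and 1.94 at ZT20. The deposited kidney counts of overlapping genes allow the shared reads to be estimated: 28.8% of the Sphk2 NTS reads fell in the shared bases and 71.2% outside Dbp. Outside Dbp the NTS of Sphk2 came to 3.83 CPM (of all reads of the library) at ZT0, 5.16 at ZT4, 11.2 at ZT8, 8.22 at ZT12, 4.59 at ZT16 and 3.28 at ZT20, each from 2 libraries together. The times of ZT8 and ZT12 remained the highest outside the shared bases. These estimates are differences of counts drawn at 2 depths, and each time carries the error of that step. Of the other opposite-strand genes near Sphk2, the ribosomal protein gene Rpl18 starts 0.068 kb from the start of Sphk2 and was rhythmic on its TS in kidney (0.27 ± 0.06, peak 6.6 h, adjusted p = 0.0255) and in liver (0.25 ± 0.06, 8.7 h, adjusted p = 0.0275). Both calls were lost for any difference among the 6 times (adjusted p = 0.248 and 0.314), after removal of the trend with gene length (0.0986 and 0.0918) and without any 1 of 4 libraries. These were in kidney either library of ZT8, ZT16 replicate 1 or ZT20 replicate 1 (0.0546 to 0.0904), and in liver ZT8 replicate 1, ZT16 replicate 1 or either of ZT20 (0.0504 to 0.0810). Ntn5 did not pass in kidney (adjusted p = 0.374) or liver (0.222). Car11 did not pass in kidney (0.36 ± 0.11, adjusted p = 0.0844), but did with the block (0.0356), with DESeq2 (0.0422) and without ZT0 replicate 1 (0.0239). In liver it did not pass (0.53 ± 0.16, adjusted p = 0.0918), but did with DESeq2 (0.0415) and without ZT0 replicate 1 (0.0203) or ZT8 replicate 2 (0.0436). Mamstr did not pass in kidney (0.36 ± 0.10, adjusted p = 0.0556) or liver (0.663). In kidney it passed with the block (0.00376), DESeq2 (0.0176), no filter (0.0372) or library totals as the scaling (0.0408), and without ZT0 replicate 2, ZT4 replicate 1 or ZT16 replicate 2 (0.0225 to 0.0487). Sec1, a fucosyltransferase gene on the strand of Sphk2 between it and Mamstr, passed in kidney (0.44 ± 0.11, peak 8.2 h, adjusted p = 0.0347) and not in liver (0.41 ± 0.18, adjusted p = 0.295). The kidney call was lost for any difference among the 6 times (0.347), after removal of the trend with gene length (0.0511) and without ZT8 replicate 2, ZT12 replicate 2, ZT16 replicate 1 or ZT20 replicate 1 (0.0590 to 0.222). In liver it passed without ZT0 replicate 1 (0.0158).

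Il27ra encodes the receptor subunit for interleukin 27, and Palm3 a paralemmin. In kidney the NTS of Il27ra was 0.576 and 0.566 RPKM at ZT0, 0.448 and 0.415 at ZT4, and 0.319 and 0.313 at ZT8. It was 0.34 and 0.282 at ZT12, 0.357 and 0.389 at ZT16, and 0.543 and 0.514 at ZT20. The libraries of ZT0 and ZT20 were above all others, and the amplitude was 0.57 ± 0.07 with the peak at 21.96 h. In kidney the NTS took 67.2% of the reads of Il27ra, against a median of 17.1% over entries with at least 100 reads. In liver it took 10.6%, with only 3 to 22 NTS reads per library and an amplitude of 0.16 ± 0.20.

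Palm3 in kidney ranged from 1.02 to 2.22 RPKM on its TS, with amplitude 0.46 ± 0.07 and a peak at 21.7 h, 0.248 h from the Il27ra NTS. In liver Palm3 ranged from 0.0231 to 0.105 RPKM, with 4 to 21 reads per library, and its rhythm is not resolved at that depth (0.53 ± 0.20). The Il27ra NTS was 24.8% ± 2.95 (SD, n = 12) of the Palm3 TS in kidney. The 10 shared bases held no measurable share of the reads, estimated at -0.671% of the Il27ra NTS, a difference of counts drawn at 2 depths, which can fall below 0. By time this estimate ran from -39.1 of 286 NTS reads at ZT0 to 41.9 of 223 at ZT12. Further opposite-strand genes at 24.3 to 29.9 kb included Samd1 and 1700067K01Rik, which were rhythmic in liver (0.41 ± 0.08, 18.7 h, adjusted p = 0.0124, and for 1700067K01Rik 0.59 ± 0.13, 18.6 h, adjusted p = 0.0199), where the Il27ra NTS did not pass. The call for Samd1 was lost for any difference among the 6 times (adjusted p = 0.129). The call for 1700067K01Rik was lost without either library of ZT8 or of ZT20 (adjusted p = 0.0535 to 0.0702). Rfx1, behind the start of Il27ra, passed in kidney (0.18 ± 0.04, 20.1 h, adjusted p = 0.0237), and did not for any difference among the 6 times (0.132) or without any 1 of 6 libraries, ZT4 replicate 2, both of ZT8, ZT12 replicate 2, ZT16 replicate 1 or ZT20 replicate 1 (0.0539 to 0.154). The same-strand gene 2210011C24Rik, between Il27ra and Samd1, did not pass in kidney (adjusted p = 0.127) or liver (0.237), and Rln3, between Il27ra and Rfx1, was too low to test.

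Hectd2 encodes an E3 ubiquitin ligase of the HECT class, and 1500017E21Rik is a gene known by its clone name. In liver the NTS of Hectd2 was 0.24 and 0.382 RPKM at ZT0, 0.146 and 0.162 at ZT4, and 0.0355 and 0.0457 at ZT8. It was 0.0349 and 0.0428 at ZT12, 0.0741 and 0.0718 at ZT16, and 0.18 and 0.389 at ZT20. The 4 libraries of ZT8 and ZT12 were the lowest, and the 2 libraries of ZT20 differed from each other by more than those of any other time. The amplitude was 1.78 ± 0.11, an 11.8-fold swing, with the peak at 22.7 h. In kidney it was 0.19 ± 0.10, and no library was above 0.0573 RPKM.

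In liver the TS of 1500017E21Rik was 0.291 and 0.324 RPKM at ZT0, 0.146 and 0.197 at ZT4, and 0.097 and 0.104 at ZT8. It was 0.0853 and 0.134 at ZT12, 0.146 and 0.144 at ZT16, and 0.264 and 0.481 at ZT20. The amplitude was 1.00 ± 0.12 with the peak at 21.9 h, 0.793 h from the Hectd2 NTS. In kidney it stayed between 0.0304 and 0.0581 RPKM. The shared bases held an estimated 2.11% of the Hectd2 NTS reads in kidney, where that could be computed. The next opposite-strand gene, Ppp1r3c, which encodes a glycogen-targeting subunit of protein phosphatase 1, lies 110.6 kb away and did not pass in liver (0.19 ± 0.07, adjusted p = 0.159) or kidney (adjusted p = 0.427).

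Pdia2, a protein disulfide isomerase gene best known from pancreas, differed from the pairs above. Nearly all of its reads were on the NTS: 85.3% in kidney and 98.2% in liver, the latter above 99.9% of entries with at least 100 reads. In kidney the NTS was 3.61 and 2.81 RPKM at ZT0, 2.15 and 2.54 at ZT4, and 2.15 and 2.01 at ZT8. It was 2.78 and 2.63 at ZT12, 3.97 and 3.42 at ZT16, and 3.74 and 3.96 at ZT20. The fitted amplitude was 0.61 ± 0.08 with the peak at 19.2 h. Libraries of ZT0 and ZT16 overlapped, and those of ZT4 and ZT8 lay below all from ZT12 to ZT20. In liver the NTS ranged from 2.89 to 4.29 RPKM with amplitude 0.24 ± 0.07 and the same peak, 19.2 h.

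The gene that runs toward Pdia2 is Axin1, a scaffold of the complex that degrades beta-catenin. Its TS was nearly flat, at 1.85 to 2.12 RPKM in kidney and 1.82 to 2.12 in liver. Its amplitude was 0.07 ± 0.03 in each tissue and did not pass (adjusted p = 0.190 and 0.152). The NTS of Pdia2 was 152% ± 35.0 of the TS of Axin1 in kidney and 191% ± 19.8 in liver (SD, n = 12 each), so the NTS exceeded the gene at its end in both tissues. The fitted peaks of Axin1, at 19.2 h and 19.4 h, belong to amplitudes that did not pass. Mrpl28, Tmem8 and Rgs11, the other named opposite-strand genes, did not pass in kidney (adjusted p = 0.768, 0.167 and 0.308) or in liver (0.993, 0.794 and 0.703). Arhgdig, on the strand of Pdia2 between it and Rgs11, did not pass in kidney (adjusted p = 0.926) and was too low to test in liver.

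Rhbdd2, a rhomboid-domain gene, and Slc13a1, the sodium sulfate cotransporter of kidney tubules, have no opposite-strand gene within 10 kb. The NTS of Rhbdd2 in liver was 0.118 and 0.135 RPKM at ZT0, 0.264 and 0.266 at ZT4, and 0.419 and 0.483 at ZT8. It was 0.358 and 0.554 at ZT12, 0.24 and 0.221 at ZT16, and 0.121 and 0.139 at ZT20. The 4 libraries of ZT8 and ZT12 were the highest, and the amplitude was 0.98 ± 0.08 with the peak at 10.0 h. In kidney it was 0.21 ± 0.09. Tmem120a, the nearest gene running toward it, peaked on its TS at 8.0 h in liver with a small amplitude (0.15 ± 0.04, adjusted p = 0.0401), and this call was lost without any 1 of the 10 liver libraries from ZT4 to ZT20 (0.0552 to 0.170). It was also lost without a filter on low counts (0.0968), after removal of the length trend (0.114) and for any difference among the 6 times (0.423). Por, in between and on the same strand as Rhbdd2, did not pass in kidney (0.02 ± 0.03, adjusted p = 0.878) or liver (0.10 ± 0.03, 6.5 h, adjusted p = 0.0612). In liver it passed with the block (0.0268), with DESeq2 (0.0267), with library totals as the scaling (0.0163) and without ZT0 replicate 1 (0.0221) or ZT8 replicate 2 (0.0442).

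Slc13a1 had the widest swing of the 8. Its liver NTS was 0.0243 and 0.0138 RPKM at ZT0, 0.0222 and 0.0122 at ZT4, and 0.0174 and 0.0992 at ZT8. It reached 0.247 and 0.246 at ZT12, then fell to 0.105 and 0.0953 at ZT16, and 0.0389 and 0.0266 at ZT20. The 2 libraries of ZT8 disagreed, while those of ZT12 stood apart from all others. The amplitude was 2.04 ± 0.17, a 16.8-fold swing, with the peak at 12.9 h. In liver the gene's TS held 384 reads over 12 libraries and its NTS 1602, so 80.7% of its reads were on the NTS. In kidney TS reads numbered 12569 and NTS reads 878, or 6.53% on the NTS, and the NTS amplitude was 0.09 ± 0.08. Asb15 did not pass in liver (0.12 ± 0.13, adjusted p = 0.791), and in kidney (0.20 ± 0.06, adjusted p = 0.0888) it passed with the block (0.0366), with DESeq2 (0.0446) and without ZT0 replicate 2 (0.0407).

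**Figure D3:**
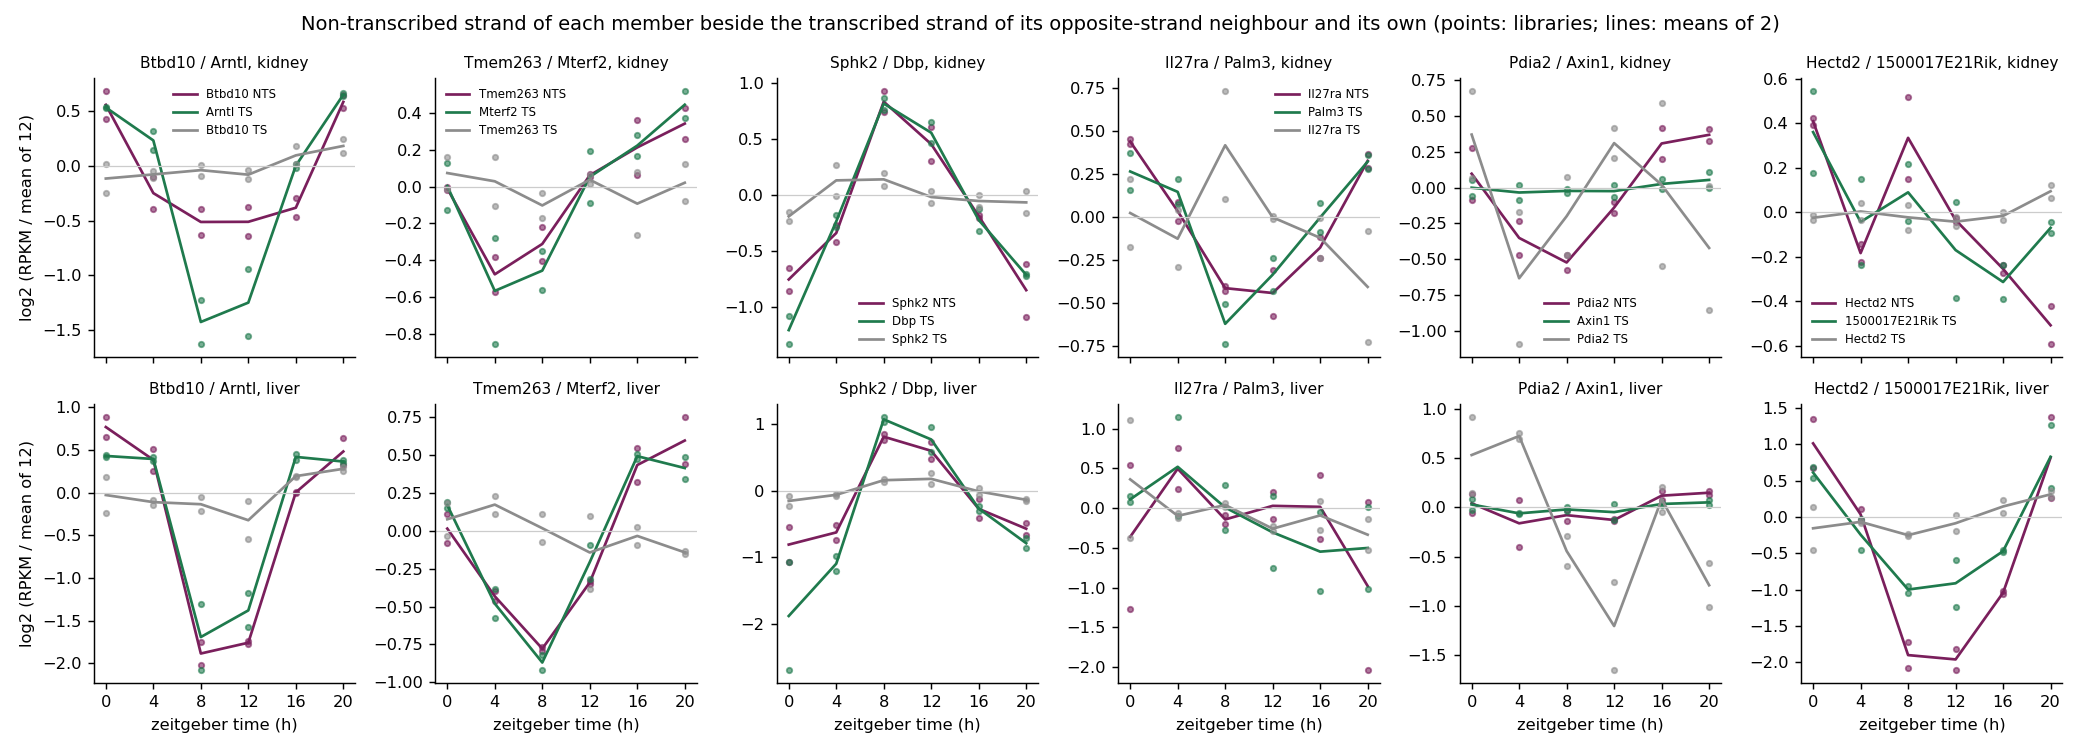
Log2 of RPKM over the mean of the 12 libraries of a tissue against zeitgeber time in hours, for the NTS of 6 members (purple), their own TS (grey) and the TS of the nearest opposite-strand neighbour at their end (green), with 1 point per library and lines through means of 2. Both rhythms passed for Btbd10, Tmem263 and Sphk2 in both tissues, for Il27ra in kidney and for Hectd2 in liver. There the fitted peaks of the purple and green series lie within 3 h of each other. The highest and lowest times of the lines can still differ. In kidney these are ZT0 and ZT12 for the Il27ra NTS, and ZT20 and ZT8 for the Palm3 TS. For Pdia2 the green line is nearly flat.

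Peak times were set side by side for members and neighbours that overlap them or run toward them. In kidney 4 of the 5 members with an NTS rhythm had such a neighbour with a TS rhythm past the threshold, and in liver 5 of 6. Over all called NTS entries that overlap an opposite-strand gene, 74 of 159 in kidney and 121 of 178 in liver overlapped a called one. With a gene running toward them within 10 kb, these were 59 of 170 and 88 of 205. The members' neighbours reached out to 100 kb, so the counts are not on one scale. For Rhbdd2 in liver this neighbour was Tmem120a at 89.1 kb, whose call was lost without any 1 of 10 libraries. For each of these members at least 1 such neighbour peaked within 3 h of the member. Dbp, Palm3 and 1500017E21Rik among them overlap their member and share bases with it. The exceptions were Pdia2 in kidney and Slc13a1 in liver. Over the 13 convergent neighbours that could be tested, 3 passed on the TS in kidney and 6 in liver, where 15.0% of 19277 and 16.6% of 18655 entries passed. The 6 in liver include Samd1 and 1700067K01Rik, beside Il27ra, whose NTS did not pass there. They peaked 11.9 h and 11.8 h from it. Tmem120a is also among the 6. With the replicate block, 5 of the 13 passed in kidney, Car11 and Mamstr in addition, where 25.4% of kidney entries did. Over the divergent neighbours, 2 of 4 passed in kidney and 1 of 5 in liver.

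**Figure D4:**
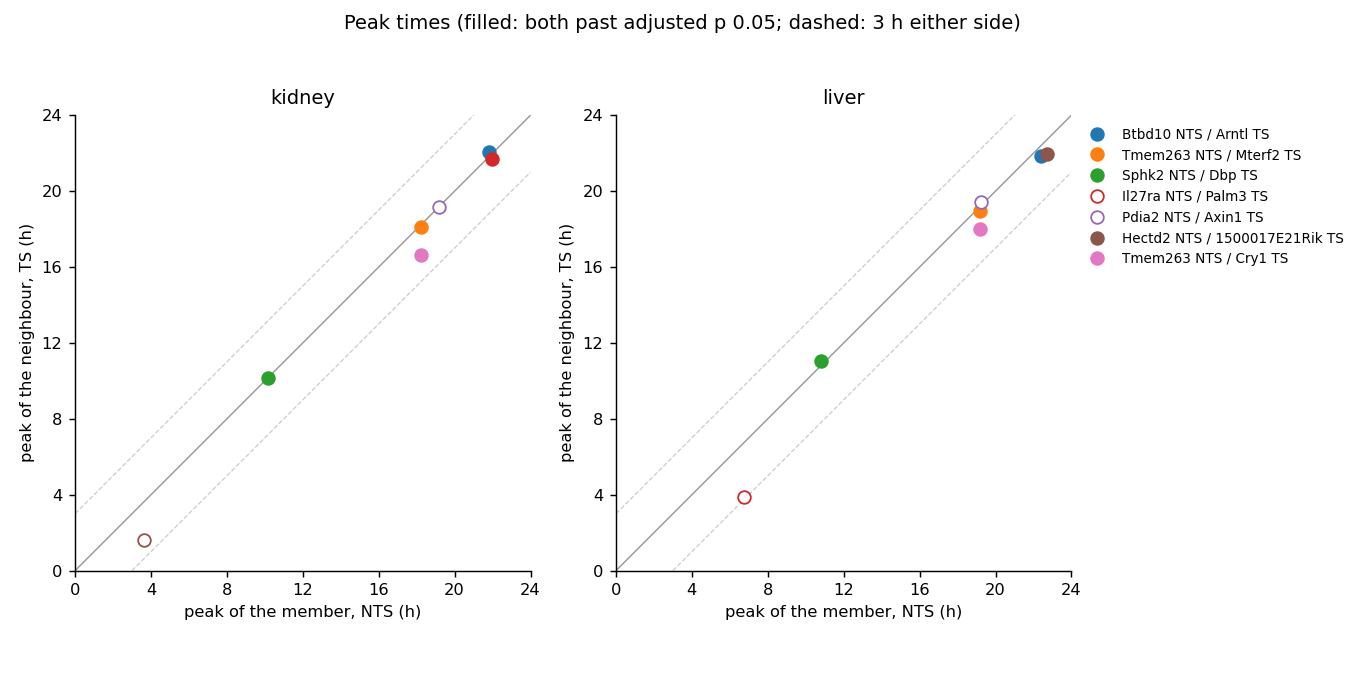
Fitted TS peak of the neighbour against fitted NTS peak of the member, both in hours of zeitgeber time, for 7 pairs in kidney (left) and liver (right). Among these 7 pairs, filled points, where both rhythms passed an adjusted p of 0.05, lie within 3 h of the diagonal in both tissues. Open points are pairs in which at least 1 did not pass. The plot leaves out other pairs in which both passed. Peaks of the Sphk2 NTS and the Rpl18 TS lay 3.58 h apart in kidney and 2.10 h in liver. For Il27ra and Rfx1 in kidney the distance was 1.85 h, and for Rhbdd2 and Tmem120a in liver 1.98 h. Dbp, Palm3 and 1500017E21Rik overlap their members, so some reads can be in both counts.

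The members' own TS is a measure that the choice did not use. In kidney 0 of 8 members passed with edgeR, 1 had an unadjusted p under 0.05 and 1 passed with DESeq2, beside the 15.0% of all entries that passed with edgeR. Btbd10 was nearest (0.14 ± 0.04, adjusted p = 0.0649), and it passed with the replicate block (0.0319), with DESeq2 (0.0401) and without kidney ZT0 replicate 1 (0.0261). In liver 4 of the 7 members that could be tested passed, beside 16.6% of all entries, and 2 of these 4 calls were lost on leaving out single libraries, as given below. Pdia2, with 1 to 9 TS reads per library, was too low to test there. Rhbdd2 was the clearest, with 2.54 and 2.76 RPKM at ZT0, 3.41 and 3.57 at ZT4, and 4.07 and 3.98 at ZT8. It then had 3.8 and 3.81 at ZT12, 2.79 and 3.24 at ZT16, and 2.77 and 2.8 at ZT20. ZT8 and ZT12 were again above all other times. The amplitude was 0.29 ± 0.03, a 1.504-fold swing, with the peak at 9.2 h (adjusted p = 0.000595), which is 0.770 h from its NTS peak.

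Sphk2 passed in liver as well (0.17 ± 0.03, peak 10.8 h, adjusted p = 0.00916), 0.0385 h from its NTS peak. This call was lost for any difference among the 6 times (adjusted p = 0.170). Its libraries ranged from 4.45 to 6.27 RPKM. Btbd10 (0.26 ± 0.07, 19.8 h, adjusted p = 0.0394) and Hectd2 (0.25 ± 0.06, 18.9 h, adjusted p = 0.0437) were close to the threshold. The call for Btbd10 was lost without any 1 of 8 libraries, which were both of ZT4, ZT16 and ZT20, ZT8 replicate 1 and ZT12 replicate 2 (0.0538 to 0.140). That for Hectd2 was lost without any 1 of 8, both of ZT8, ZT12 and ZT20, ZT4 replicate 2 and ZT16 replicate 1 (0.0640 to 0.165). Both were also lost for any difference among the 6 times (0.175 for Btbd10 and 0.220 for Hectd2), with library totals as the scaling (0.0587 and 0.0553) and after removal of the length trend (0.0731 and 0.114). The peaks of these 2 lay 2.55 h and 3.88 h from their NTS peaks. Tmem263 (adjusted p = 0.361), Il27ra (0.613) and Slc13a1 (0.729) did not pass in liver.

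**Figure D5:**
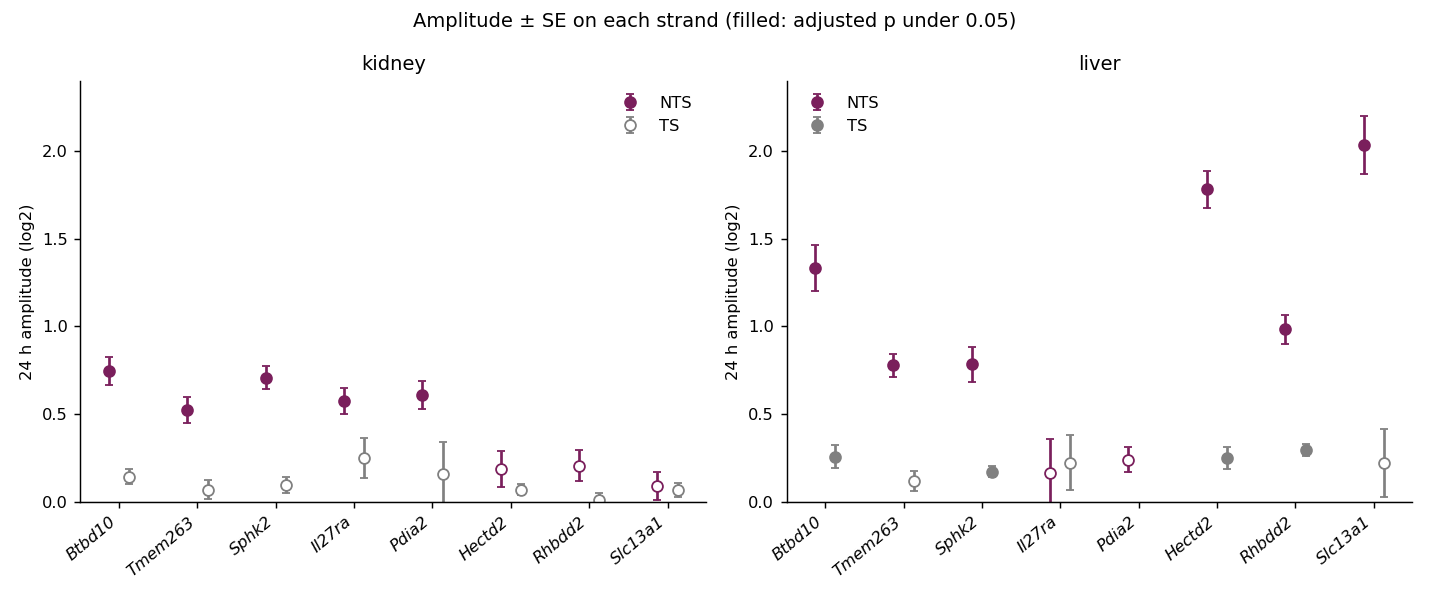
Amplitude of the 24 h fit in log2 units, with its standard error, on the NTS (purple) and the TS (grey) of each member in kidney and liver; filled points passed an adjusted p of 0.05. In liver the NTS points of Slc13a1, Hectd2 and Btbd10 lie at 2.04, 1.78 and 1.33, while no TS point is above 0.29.

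The NTS amplitude was larger than the TS amplitude of the same gene in all 8 members in kidney and in 6 of the 7 fitted on both strands in liver. The exception was Il27ra in liver, where it was 0.726 times as large. For the 6 members called in liver the ratio ran from 3.34 for Rhbdd2 to 9.22 for Slc13a1. Since these amplitudes chose the members, the ratios are a description. Between tissues the TS rhythm of 1 member differed, that of Rhbdd2 (amplitude of the difference 0.30 ± 0.05, adjusted p = 0.0125), where 0.939% of 19702 entries passed. Its kidney amplitude was 0.01 ± 0.04 (adjusted p = 0.975). Leaving out any 1 of the 24 libraries kept this call, with an adjusted p of 0.00463 to 0.0429. For Hectd2 the difference did not pass (0.19 ± 0.08, adjusted p = 0.452), and it passed without liver ZT0 replicate 1 (0.0215).

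The authors' downsampled kidney counts also cover the DNA between genes, starting 2 kb from each gene, on 2 lines per region. In 735 of 735 overlapping gene pairs, line 1 matched the template strand of the plus-strand gene. The intergenic table could be checked only by which line was higher between 2 genes of 1 strand, which was the line so inferred in 79.7% of 784 regions between plus-strand genes and 78.4% of 746 between minus-strand genes. The strand of the intergenic lines is therefore an inference. Of the 16 lines next to a member, 0 passed an adjusted p of 0.05 with edgeR, 4 had an unadjusted p under 0.05 and 2 passed with DESeq2, where 2.45% of 24899 lines passed with edgeR. With the replicate block, 2 passed, and 6.02% of all lines did. The first was line 1 of the 38.8 kb between Rhbdd2 and Por (0.21 ± 0.05, peak 8.8 h, adjusted p = 0.0763 without and 0.0167 with the block). The second was line 1 of the 94.4 kb before the start of Hectd2 (0.26 ± 0.07, 18.9 h, adjusted p = 0.0642 and 0.0139). If the inferred strand holds, the first is the template strand of Rhbdd2 and Por, and the second that of Hectd2. No such region lies between Btbd10 and Arntl, between Tmem263 and Mterf2 or between Pdia2 and Axin1, whose ends are closer than the 2 kb margins.

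Counts over the whole of 2 overlapping genes were deposited too, and 10.2% of 3129 such lines passed (24.5% with the block). The line that holds the NTS of Sphk2 and the TS of Dbp had an amplitude of 0.90 ± 0.06 with the peak at 9.9 h. The opposite line, the TS of Sphk2 and the NTS of Dbp, had 0.13 ± 0.05. For Il27ra and Palm3 the 2 lines had 0.52 ± 0.06 (peak 21.98 h) and 0.29 ± 0.11. Those lines contain the reads that chose the members and are a description.

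The surroundings of the 8 were set beside those of all entries with an NTS rhythm past the threshold. In kidney 4.98% of the entries that overlap an opposite-strand gene were called, and 3.79% of those with a gene running toward them within 10 kb. The share was 0.614% of those with a gene running away within 10 kb, and 0.645% of those with no opposite-strand gene that near. In liver the shares were 5.74%, 4.71%, 2.68% and 2.82%. Of the 170 called kidney entries with a convergent gene, 59 had one whose TS was also called, and in 58 of these the peaks were within 3 h. In liver these counts were 205, 88 and 81. Among the 54 called liver entries with a divergent gene only, 17 had one that was called on the TS and 8 of these were close. Rhbdd2 and Slc13a1 belong to the 242 called liver entries with no opposite-strand gene within 10 kb. Of those 242, 87 had a rhythm of their own TS, and in 68 it peaked within 3 h of the NTS. Rhbdd2 is 1 of the latter, and Slc13a1 is not.

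A second list held 20 core and output genes of the clock. Of these, 15 were called on the TS in kidney and 17 in liver, beside 15.0% and 16.6% of all entries. Among the 20, 17 had a gene of the opposite strand that they overlap or run toward within 100 kb. The NTS of that gene was called for 8 of 17 in kidney and 7 of 16 tested in liver, beside 2.12% and 3.76% of all entries. Those counts include Btbd10, Tmem263 and Sphk2, chosen on this rhythm, and 3 overlapping pairs that share reads (Dbp with Sphk2, Nr1d1 with Thra and Ciart with C920021L13Rik). Without the members and all overlapping pairs, 3 of 10 were called in kidney (Tmem165, Tob2 and Uts2) and 2 of 9 in liver (Tmem165 and Uts2), and each peaked within 3 h of its clock gene. The median NTS amplitude of those 10 and 9 was 0.20 and 0.31, against 0.14 and 0.15 over all entries. Per3 runs toward Uts2 at 1.84 kb, and in liver the amplitude was 1.31 on the NTS of Uts2 and 0.82 on the TS of Per3. For Tmem165 beside Clock these were 0.65 and 0.30. Npas2 had a TS amplitude of 3.003 in liver, and Tbc1d8, 8.255 kb from its end, had an NTS amplitude of 0.10.

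Genes most like each member were sought over the TS of all entries tested, by Pearson's r with the member's NTS across the 12 libraries (log2 CPM) of the tissue in which its amplitude was larger. With 12 points and a shared daily cycle, many unrelated genes reach a high r, so the neighbours' ranks are given as well. Dbp, 1500017E21Rik and Palm3 overlap their members, so some reads can be in both counts and raise their r. For Dbp these were an estimated 28.8% of the Sphk2 NTS reads in kidney. The ranks of these 3 are a description only. For the Sphk2 NTS the first 3 were Dbp (r = 0.960), Bhlhe41 (0.945) and Sphk2 itself (0.922) in liver. For Hectd2 they were Loxl4, Npas2 and Nckap5 (0.977, 0.972 and 0.958), with 1500017E21Rik at rank 7 (0.948). For Btbd10 they were Asap2, Capn2 and Rnf144a (0.987, 0.970 and 0.968), with Arntl at rank 11 of 18655 (0.951). For Tmem263 they were Lcmt1, Ints10 and Slx4ip (0.981, 0.975 and 0.974), with Mterf2 at rank 55 and Cry1 at rank 1679. For Il27ra in kidney they were Ablim3, Asxl3 and Arhgef10l (0.975, 0.956 and 0.952), with Palm3 at rank 4 of 19277 (0.952). For Pdia2 in kidney they were Cdc42bpa, Pik3cb and Nr6a1 (0.983, 0.981 and 0.980), with Axin1 at rank 3496. For Rhbdd2 in liver the first was E030018B13Rik (0.953), with Rhbdd2 itself at rank 5 and Tmem120a at 1036. For Slc13a1 they were Mbnl2, Gm19522 and Rnaseh2b (0.927, 0.922 and 0.9202), with its own TS at rank 5139 and Asb15 at 13987.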

How the data were processed

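Read counts per gene and strand, and RPKM, were deposited by the authors in separate tables for each tissue, strand and replicate number, per the file headers. Reads were placed on mm10, per the submitters' processing notes. The sources used here name no aligner or counter. The labels' extraction protocol names antibodies to lesions other than those of cisplatin. For kidney, the authors also deposited counts downsampled to 8700000 (replicate 1) and 20000000 (replicate 2) reads per library. The strand of the lines for regions was inferred from the gene counts.

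Counts were tested with edgeR 4.0.16 (R 4.3.3, TMM, filterByExpr, quasi-likelihood F test of a 24 h cosine, Benjamini-Hochberg over all entries tested, threshold 0.05). DESeq2 1.42.0 was an alternative, beside the replicate number as a block, no filter, any difference among times, library totals, removal of the length trend, downsampled counts and leaving out each library. The fit was tested on simulated data in which libraries varied independently, so that check does not cover libraries that deviate together. Each SE was obtained by dividing the amplitude by the root of the F value for the fitted peak direction. The members and gene lists were chosen with earlier results of these data known. Named were the members, opposite-strand genes that overlap them, the 3 nearest within 100 kb that run toward them, the nearest on the other side, and same-strand genes in between. In kidney, same-numbered libraries deviated together in all 15 pairs of times (lowest r 0.134 on the TS and 0.117 on the NTS). The main fits hold no term for this pairing, so kidney results leave it out unless the block is named. With the block, 7.78% of kidney NTS entries passed in place of 2.12%, and 25.4% on the TS in place of 15.0%. For Rhbdd2, part of the list of most similar genes is not reported here.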

Additional observations from a re-analysis of the deposited data

Results flagged for a closer look

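The TS rhythm of Rhbdd2 differed between kidney and liver by a test of the difference itself (amplitude of the difference 0.30 ± 0.05 in log2 units, edgeR adjusted p = 0.0125). The TS rhythm of 1500017E21Rik was flagged too, with an amplitude of the difference of 0.90 ± 0.17. This gene shares 1718 bases with Hectd2, which was chosen on its NTS rhythm, so some reads can be in both counts. Their share was estimated in kidney alone (2.11% of the Hectd2 NTS reads). The value is therefore a description and no independent test. Its call was also lost without kidney ZT8 replicate 2 or kidney ZT20 replicate 2.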

How the results depend on the processing

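With the replicate number as a block, called entries numbered 1473 against 401 on the kidney NTS, 4899 against 2886 on the kidney TS, 447 against 185 for kidney against liver, 1500 against 609 in intergenic lines and 768 against 318 in overlap lines. DESeq2 called 635 on the kidney NTS, 706 for kidney against liver and 530 overlap lines. Without a filter, 1171 kidney and 1156 liver NTS entries were called, the latter against 679. The test of any difference among times called 17 and 270 on the NTS, 196 and 549 on the TS (549 against 3098 in liver), 101 intergenic and 12 overlap lines. Library totals as the scaling called 216 on the kidney NTS, and the downsampled counts 228. Leaving out 1 library gave 87 to 1063 on the kidney NTS, 385 to 1027 on the liver NTS, 908 to 3938 and 1639 to 4514 on the TS, 112 to 400 for kidney against liver, 185 to 1329 intergenic and 91 to 712 overlap lines. The fewest followed the loss of kidney ZT8 replicate 2, liver ZT8 replicate 2 (NTS) and liver ZT20 replicate 1 (TS). The cause was not tested. In liver, same-numbered libraries deviated together in 6 of 15 pairs of times on the TS and 5 of 15 on the NTS, so they share only a number. With library totals as the scaling, kidney NTS amplitudes were 0.63 for Btbd10, 0.38 for Tmem263, 0.83 for Sphk2, 0.47 for Il27ra and 0.46 for Pdia2. Fewer than 25 reads per library, as for Il27ra NTS and Palm3 TS in liver, limit what can be resolved.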
